A study of Homo sapiens with 14 samples.

Results

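The enzymes that place methyl groups on lysines 9, 27 and 36 of histone H3 were followed as RNA in PC3 and HCT116 cells in normoxia and hypoxia. The members were taken by name, as 10 of the 23106 gene symbols counted in every library. SETD2, NSD1 and ASH1L act on H3K36, SUV39H1, SUV39H2, SETDB1 and EHMT1 act on H3K9, and EZH1, EZH2 and SUZ12 belong to the Polycomb repressive complex PRC2, which acts on H3K27. SUZ12 is a subunit of PRC2 and not itself an enzyme.

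Methylation of H3K36 is laid down over the bodies of transcribed genes. SETD2 travels with elongating RNA polymerase and makes the trimethylated form, whereas NSD1 and ASH1L make the lower methylated forms. Methylation of H3K9 marks heterochromatin: SUV39H1 and SUV39H2 act at repeats around centromeres, SETDB1 silences retroelements through the KAP1 (TRIM28) corepressor, and EHMT1 works with its partner EHMT2 in euchromatin. Methylation of H3K27 by PRC2 keeps developmental genes silent, with EZH1 or EZH2 as the alternative catalytic subunit. EZH2 is the form of dividing cells and EZH1 that of resting cells. All of these enzymes use S-adenosylmethionine as methyl donor. The marks are removed in part by demethylases that need oxygen, several of which are targets of the hypoxia-inducible factor HIF.

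PC3 is a line from a human prostate carcinoma and HCT116 a line from a human colorectal carcinoma. Cells were kept at 21% O2 (normoxia) or at 0.5% O2 (hypoxia) for 16 h, in medium with fetal bovine serum that was DMEM/Ham's F12 for PC3 and McCoy's medium for HCT116. Polyadenylated RNA was sequenced, from 4 replicates of each condition in PC3 and 3 of each in HCT116, called biological replicates in the study's methods. The labels give no added genetic change or drug for any group, and each tissue of origin is represented by a single cell line.

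Total counts lay between 71228454 and 96159803 in hypoxic PC3, below the 98021966 to 123935458 of normoxic PC3, and between 133067391 and 150630928 in HCT116. Levels are given as CPM (counts scaled by the TMM-adjusted library size, with all 14 libraries on the same scale), where 3 counts are at most 0.0447 CPM. All 8 genes of a list of known hypoxia-induced genes rose in both lines, led by NDRG1 (log2 fold change 2.87), EGLN3 (1.88) and BNIP3 (1.71) in PC3 and by CA9 (6.03), ANKRD37 (3.44) and BNIP3 (3.22) in HCT116. Of the markers of tissue, KLK3 was listed at 0 in every library, and HOXB13 was between 61.9 and 92.9 CPM in PC3. In HCT116, CDX2 was between 16.2 and 20.9 CPM, and CDX1 was listed at 0. The fourth hypoxic PC3 library stood apart by transcript length: genes with transcripts above 8144 bp lay at a median of -0.13 (log2 CPM) from the mean of the PC3 libraries and genes below 1664 bp at 0.21, against -0.03 to 0.09 and -0.11 to 0.01 in the other 7. It was the lowest of the 8 PC3 libraries for 7 of the 10 members. Each PC3 result is also given without it where that changes a call. This library was singled out with the members' values seen, so results without it describe its influence and are not independent tests. Fits with each library's trend with length removed are given where they change a call.

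**Figure D1:**
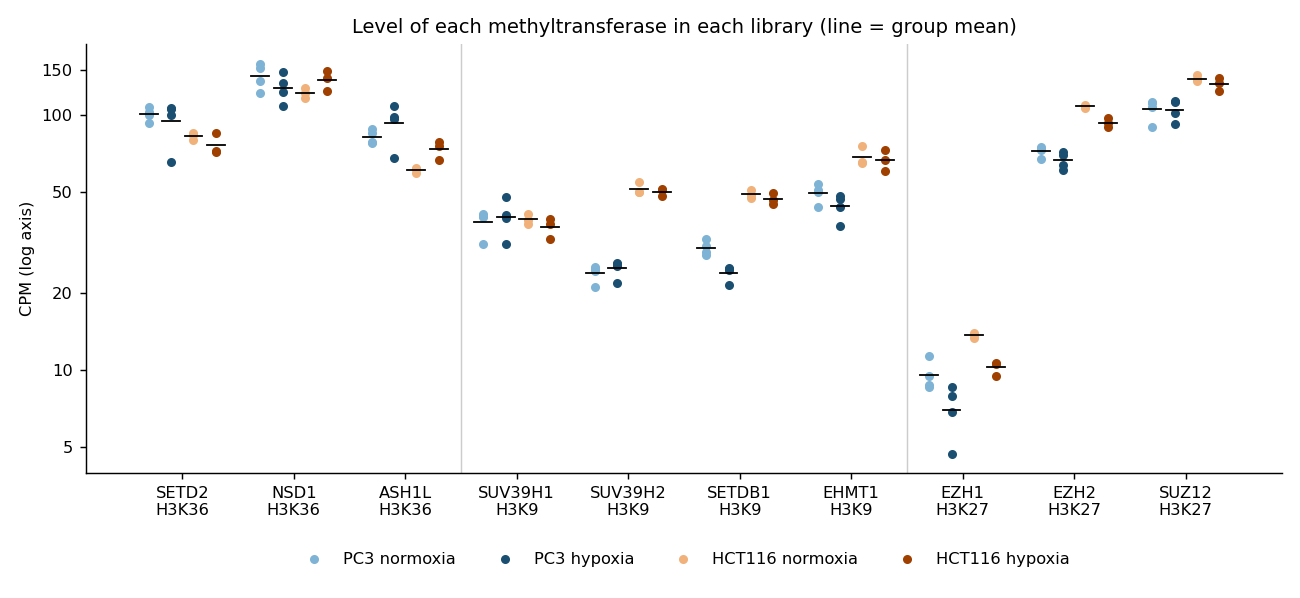
Level of the 10 methyltransferases in every library, in CPM on a log axis, with a point per library and a black line for the mean of each group (n = 4 per condition in PC3, n = 3 in HCT116). SUV39H2 and SETDB1 separated the lines most, and SETDB1 and EZH1 sat lower in hypoxic than in normoxic PC3 without overlap.

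To compare members with each other, CPM was divided by the length of all annotated exons of the gene, in kb. On this scale SUZ12 had the highest level in normoxia, 16.0 ± 1.60 CPM per kb in PC3 (SD, n = 4) and 21.1 ± 0.57 in HCT116 (SD, n = 3). EZH1 had the lowest level, 1.36 ± 0.18 CPM per kb in PC3 and 1.96 ± 0.04 in HCT116. In PC3, SUV39H1 came second with 11.8 ± 1.42 CPM per kb, though exons of an antisense lncRNA overlap 21.2% of its exon length and may share reads with it. SETD2, SUV39H2, EZH2 and NSD1 followed between 6.51 and 7.03 CPM per kb, with library values that overlapped, then ASH1L (5.96), which overlapped with all of these except SETD2, SETDB1 (4.08) and EHMT1 (2.23), which did not overlap with their neighbours. In HCT116, SUV39H2 came second with 14.4 ± 0.78 CPM per kb, ahead of SUV39H1 (12.1) and EZH2 (10.0), and only SETD2 (5.77) and NSD1 (5.59) had overlapping library values among neighbours.

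The order of several members depended on the length used. Over the longest transcript alone, EZH2 moved up to second place in both lines, with 16.0 CPM per kb in PC3 and 23.9 in HCT116, because its annotated exons span 10774 bp against 4502 bp in the longest transcript. EHMT1 rose from 2.23 to 6.30 CPM per kb in PC3 by the same change of length. Over the canonical transcript, EZH2 was above SUZ12, with 27.1 against 23.3 CPM per kb in PC3 and 40.6 against 30.8 in HCT116. EZH1 stayed the lowest under all 3 lengths in both lines.

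Hypoxia changed 1 of the 10 members in PC3 and 3 in HCT116, shares near those of all genes tested. In PC3, SETDB1 fell and no member rose (edgeR's quasi-likelihood test, adjusted p under 0.05), where 6.03% of the 14309 genes tested rose and 5.29% fell. In HCT116, ASH1L rose and EZH1 and EZH2 fell, where 14.6% of 14120 genes rose and 11.3% fell. The count of 0 rises in PC3 was also 0 at an unadjusted p under 0.05 and by DESeq2, which called 1383 of 14722 genes higher. The share of all genes at an unadjusted p under 0.05 was not computed, here or for the counts below. All 10 members passed the filter on low counts in both lines. The median log2 fold change of the members was -0.10 in PC3 and -0.05 in HCT116, beside 0.00 over all genes tested in each line.

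The labels give the PC3 libraries replicate numbers but state no pairing, which was inferred from these same counts. The fit with the number as a block called 2 members lower, SETDB1 and EZH1, and none higher. In that fit 14.9% of the genes tested rose and 13.6% fell. Without both libraries numbered 4, the paired fit called SETDB1 and EZH1 lower and ASH1L higher. Then 25.6% of 14347 genes rose and 23.6% fell. With scaling to total counts the split of all genes moved from 863 higher and 757 lower to 562 and 1733 in PC3, with a median log2 fold change of -0.10. With upper-quartile scaling it moved to 681 and 1048 in PC3. In HCT116, scaling to total counts moved the split from 2061 higher and 1597 lower to 1286 and 3146.

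**Figure D2:**
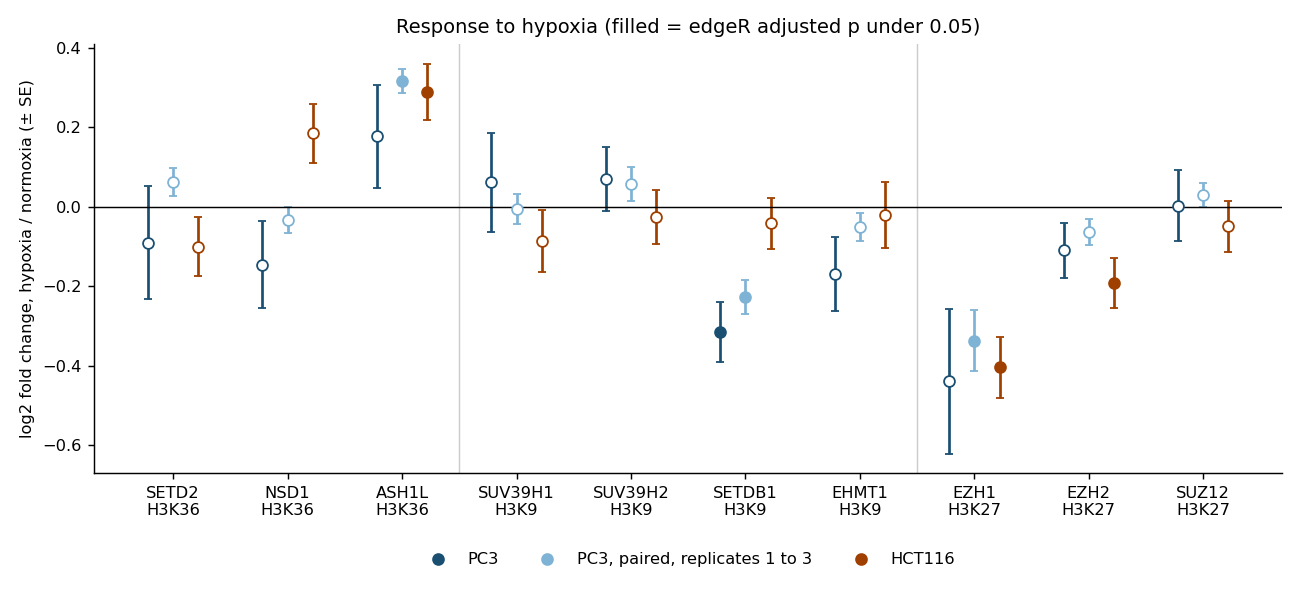
Log2 fold change of each member, hypoxia over normoxia, with its standard error, in PC3 (n = 4 per condition), in PC3 with replicates paired and number 4 left out, and in HCT116 (n = 3 per condition); filled points passed an edgeR adjusted p of 0.05. EZH1 lay at -0.44, -0.34 and -0.40 and ASH1L at 0.18, 0.32 and 0.29, while SETDB1 was filled in PC3 alone.

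Among the H3K36 enzymes, ASH1L was higher in hypoxia in HCT116. ASH1L (GRCh37 chromosome 1, 155305059 to 155532953, minus strand) encodes a Trithorax group protein that makes dimethylated H3K36. Its level was 61.4, 61.6 and 59.0 CPM in the normoxic HCT116 libraries and 75.6, 66.2 and 78.0 CPM in the hypoxic ones. Every hypoxic library was above every normoxic one, and the log2 fold change was 0.29 (SE 0.07, edgeR adjusted p = 0.0132). The call was lost without the third hypoxic library (adjusted p = 0.0526), with scaling to total counts (0.0721) and with each library's trend with transcript length removed (log2 fold change 0.18, adjusted p = 0.0721).

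In PC3, ASH1L was at 77.7, 88.0, 78.1 and 84.7 CPM in normoxia and 97.8, 108, 96.1 and 67.6 CPM in hypoxia. The first 3 hypoxic libraries were above all normoxic ones and the fourth was below them. Over all 8 libraries the log2 fold change was 0.18 (SE 0.13, edgeR adjusted p = 0.411). Without the fourth hypoxic library it was 0.31 (SE 0.06, adjusted p = 0.0188), and paired without both number 4 libraries it was 0.32 (SE 0.03, adjusted p = 2.73e-06). The value of PC3 without that library thus lay close to that of HCT116, whereas the value with it did not pass the test. Since that library was left out with its low ASH1L value seen, the adjusted p-values without it cannot be taken as independent evidence of a rise. With each library's trend with transcript length removed, the PC3 value over all 8 libraries was 0.12 (SE 0.09, edgeR adjusted p = 0.405). Paired as well, it was 0.11 (adjusted p = 0.243). The fits without number 4 were not run with that trend removed, so the part of length in their values was not tested.

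SETD2 (chromosome 3, 47057918 to 47205603, minus strand) did not pass the test in either line. Its level in PC3 was 92.5, 107, 99.8 and 103 CPM in normoxia and 99.5, 105, 106 and 65.0 CPM in hypoxia, so that the fourth hypoxic library alone stood well below the rest. The log2 fold change was -0.09 in PC3 (SE 0.14, edgeR adjusted p = 0.724) and -0.10 in HCT116 (SE 0.07, adjusted p = 0.344). Without the fourth hypoxic library the PC3 value was 0.06, with the opposite sign and also not called (adjusted p = 0.558).

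NSD1 (chromosome 5, 176558831 to 176727214, plus strand), whose loss causes an overgrowth syndrome, had levels of 108 to 159 CPM in PC3 and 116 to 148 CPM in HCT116, with conditions that overlapped in both lines. Its log2 fold change was -0.15 in PC3 (SE 0.11, edgeR adjusted p = 0.422) and 0.18 in HCT116 (SE 0.07, adjusted p = 0.0884). In HCT116 it passed the test without the second hypoxic library (0.25, adjusted p = 0.0310). In PC3 it passed in the paired fit with length trends removed (-0.20, SE 0.05, adjusted p = 0.0212). Both values moved with the setting: the HCT116 value was 0.06 (adjusted p = 0.538) with length trends removed, and the PC3 value was -0.07 without the fourth hypoxic library, -0.09 without the second normoxic one and -0.03 (adjusted p = 0.419) when paired without number 4. These 2 directions are opposite, and the difference between the lines did not pass its own test (0.32, SE 0.15, adjusted p = 0.330).

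Among the H3K9 enzymes, SETDB1 was lower in hypoxic PC3. SETDB1 (chromosome 1, 150898739 to 150937220, plus strand) trimethylates H3K9 at retroelements and imprinted regions. Its level was 28.1, 30.7, 28.9 and 32.5 CPM in normoxic PC3 and 25.0, 25.0, 24.7 and 21.6 CPM in hypoxic PC3. All hypoxic libraries were below all normoxic ones, and the fourth hypoxic library was the lowest. The log2 fold change was -0.32 (SE 0.07, edgeR adjusted p = 0.0268), and -0.23 (SE 0.04, adjusted p = 6.60e-04) when paired without number 4.

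The SETDB1 call in the unpaired fit was near the threshold. It was kept in 3 of the 8 fits that left out a library and lost without normoxic library 2, 3 or 4 or hypoxic library 2 or 3, with adjusted p between 0.0537 and 0.0924 and log2 fold changes of -0.28 to -0.33. Exons of CERS2, which lies on the opposite strand, overlap 12.9% of the SETDB1 exon length. CERS2 itself had a log2 fold change of 0.06 in PC3 (adjusted p = 0.685). In HCT116, SETDB1 was at 50.6, 48.4 and 47.2 CPM in normoxia and 44.8, 49.2 and 46.4 CPM in hypoxia, with conditions that overlapped (log2 fold change -0.04, SE 0.06, adjusted p = 0.663).

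The other H3K9 enzymes did not pass the test in either line. SUV39H1 (chromosome X, 48553945 to 48567407, plus strand) and SUV39H2 (chromosome 10, 14920819 to 14946314, plus strand) are paralogs with the same activity. Their log2 fold changes were 0.06 (SE 0.12) and 0.07 (SE 0.08) in PC3 and -0.09 (SE 0.08) and -0.03 (SE 0.07) in HCT116. EHMT1 (chromosome 9, 140513444 to 140764468, plus strand), which mono- and dimethylates H3K9, had -0.17 in PC3 (SE 0.09, edgeR adjusted p = 0.277) and -0.02 in HCT116 (SE 0.08, adjusted p = 0.877). Without the fourth hypoxic library its PC3 value was -0.09, and paired without number 4 it was -0.05. Of the 4 H3K9 members, 0 were called in HCT116 by edgeR, where 14.6% of all genes tested rose and 11.3% fell. DESeq2 also called 0 of the 4, where it called 2105 of 13636 genes higher and 1941 lower. At an unadjusted p under 0.05 there were 0 of the 4 as well, and the share of all genes at that limit was not computed. With 4 genes, a count of 0 does not set them apart from all genes.

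The counts of SUV39H1 and SUV39H2 were also compared within each library. SUV39H1 had 148% to 166% of the SUV39H2 counts in normoxic PC3 and 143% to 182% in hypoxic PC3. In HCT116 it had 68.5% to 82.4% in normoxia and 67.9% to 76.5% in hypoxia. On the log2 scale per kb the ratio moved by -0.01 with hypoxia in PC3 (exact two-sided permutation test, p = 0.886, n = 4 per condition) and by -0.07 in HCT116 (exact p = 0.400, n = 3 per condition, smallest possible p = 0.10). Both genes have overlaps on the opposite strand, with the antisense lncRNA over 21.2% of the SUV39H1 exon length, which was not analysed here, and exons of DCLRE1C over 4.46% of the SUV39H2 exon length. DCLRE1C fell in both lines, with log2 fold changes of -0.58 in PC3 (adjusted p = 0.0365) and -0.45 in HCT116 (adjusted p = 0.00117), unlike SUV39H2.

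Among the PRC2 members, EZH1 was lower in hypoxia. EZH1 (chromosome 17, 40852293 to 40897067, minus strand) was at 13.4, 13.9 and 13.8 CPM in normoxic HCT116 and 9.45, 10.6 and 10.6 CPM in hypoxic HCT116. No hypoxic library reached a normoxic one, and the mean fell by 25.3%. The log2 fold change was -0.40 (SE 0.08, edgeR adjusted p = 0.00333). The call was kept in all 6 fits that left out a library, with adjusted p between 0.00565 and 0.0130. It was lost in a fit over both lines, which shares the spread of PC3 (adjusted p = 0.118).

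In PC3, EZH1 was at 11.3, 8.73, 9.49 and 8.57 CPM in normoxia and 7.88, 6.83, 8.54 and 4.69 CPM in hypoxia. The conditions did not overlap, though the third hypoxic library nearly reached the lowest normoxic one, and within each number the hypoxic library was the lower. The log2 fold change was -0.44 (SE 0.18), which did not pass the unpaired test (edgeR adjusted p = 0.153), and -0.46 (SE 0.11) in the paired fit, which did (adjusted p = 0.0233). Without number 4 the paired value was -0.34 (SE 0.08, adjusted p = 0.00263), and the unpaired value without the fourth hypoxic library was -0.29. In bulk RNA of this kind, a lower level in every cell and fewer cells with the transcript cannot be told apart.

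EZH2 (chromosome 7, 148504349 to 148581413, minus strand), the main catalytic subunit in dividing cells, was at 109, 107 and 107 CPM in normoxic HCT116 and 97.2, 89.2 and 93.1 CPM in hypoxic HCT116. The conditions did not overlap, with a log2 fold change of -0.19 (SE 0.06, edgeR adjusted p = 0.0417). This call was close to the threshold: of the 6 fits that left out a library it was kept only without the first hypoxic one, and in the other 5 the adjusted p lay between 0.0513 and 0.127. In PC3, EZH2 was between 66.8 and 74.5 CPM in normoxia and between 60.8 and 71.5 CPM in hypoxia, and the log2 fold change of -0.11 (SE 0.07, adjusted p = 0.335) was not called and was -0.07 without the fourth hypoxic library. Of the 18 genes of the proliferation list, 3 rose and 2 fell in HCT116, near the 14.6% and 11.3% of all genes tested. Among them were MKI67 (log2 fold change 0.39, edgeR adjusted p = 0.00659), CCNB1 (-0.41, adjusted p = 0.00445) and BUB1 (-0.28, adjusted p = 0.0103). In PC3, 0 of the 18 were called by edgeR (1 at an unadjusted p under 0.05), and the part of these genes in the EZH2 value was not tested.

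SUZ12 (chromosome 17, 30264026 to 30328057, plus strand), the scaffold on which PRC2 assembles, had log2 fold changes of 0.00 in PC3 (SE 0.09, adjusted p = 0.990) and -0.05 in HCT116 (SE 0.06, adjusted p = 0.609). Its near-identical pseudogene SUZ12P1 held 1.36 to 2.79 CPM against 89.4 to 142 CPM for SUZ12.

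The balance of EZH1 to EZH2 was compared within each library. EZH1 had 16.9%, 11.7%, 12.9% and 11.8% of the EZH2 counts in normoxic PC3 and 12.4%, 9.82%, 11.95% and 7.72% in hypoxic PC3. In HCT116 it had 12.2%, 12.98% and 12.9% in normoxia and 9.72%, 11.9% and 11.4% in hypoxia. The hypoxic library was lower in all 4 numbers of PC3 and all 3 of HCT116, and in HCT116 the conditions did not overlap. On the log2 scale per kb the ratio moved by -0.36 in PC3 (exact two-sided permutation test, p = 0.171, n = 4 per condition). With the PC3 libraries paired, the exact p was 0.125, the smallest that 4 pairs allow. In HCT116 it moved by -0.21 (exact p = 0.10, the smallest that 3 against 3 allow), so that this design could not pass the threshold.

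**Figure D3:**
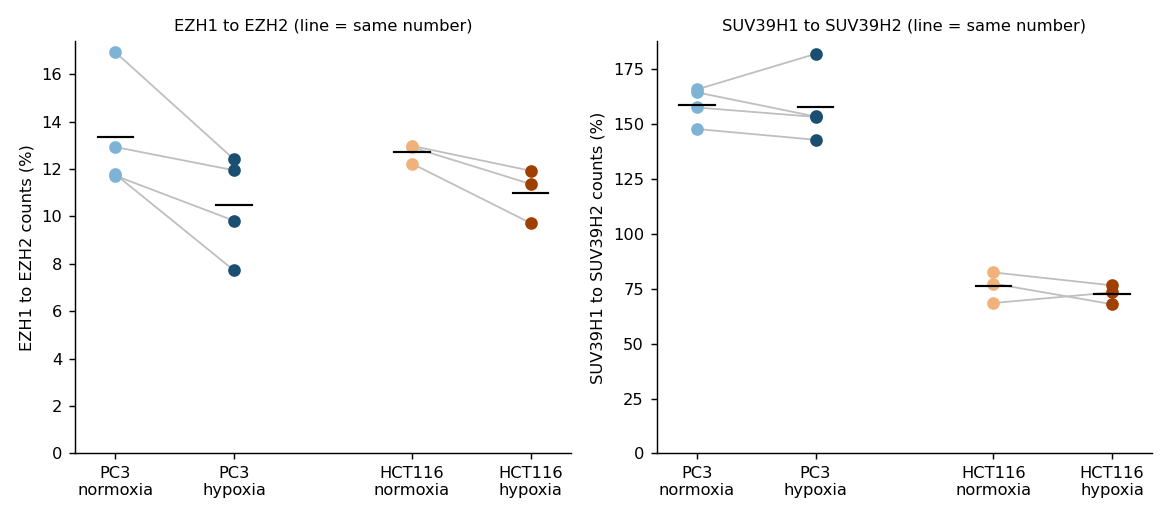
Counts of EZH1 in percent of those of EZH2 (left) and of SUV39H1 in percent of those of SUV39H2 (right) in each library, with grey lines between libraries of the same replicate number and black lines for group means (n = 4 per condition in PC3, n = 3 in HCT116). The EZH1 to EZH2 ratio was lower in hypoxia at every number, and the SUV39H1 to SUV39H2 ratio separated the lines but not the conditions.

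The members differed from each other in how far the fourth hypoxic PC3 library departed from the mean of the line. On the log2 CPM scale it lay at -0.77 for EZH1, -0.57 for SETD2, -0.35 for ASH1L, -0.33 for EHMT1, and -0.31 for both NSD1 and SETDB1. For SUV39H1 it lay at 0.30, the highest of the 8 libraries. The fourth hypoxic library lay at -0.18 for EZH2, -0.04 for SUZ12 and 0.10 for SUV39H2. The longest transcript, the length used for the trend, has 4633 bp for EZH1, 8541 bp for SETD2, 12184 bp for ASH1L and 7842 bp for EHMT1. It has 13042 bp for NSD1, 4437 bp for SETDB1, 4502 bp for EZH2 and 4495 bp for SUZ12. The shortest were those of SUV39H2 (3087 bp) and SUV39H1 (2978 bp). The part of length in these values was not tested. Both PC3 libraries numbered 1 were low for SUV39H1 (-0.30 each), SUV39H2 (-0.21 in normoxia and -0.15 in hypoxia) and SUZ12 (-0.22 and -0.18).

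**Figure D4:**
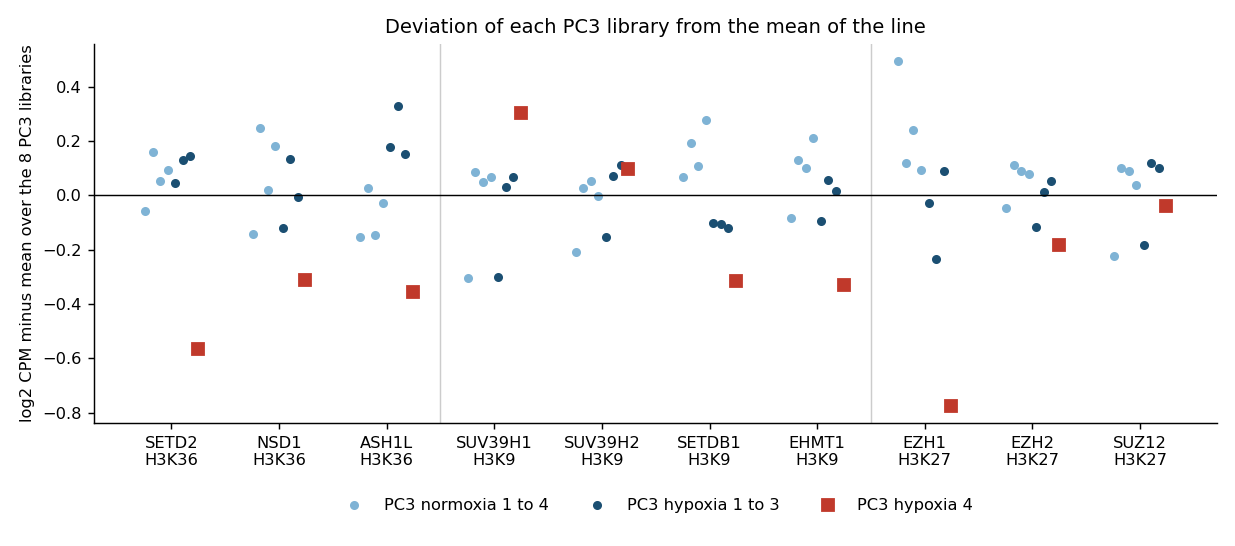
Deviation of each of the 8 PC3 libraries from the mean of the line for each member, on the log2 CPM scale; the red square is the fourth hypoxic library. It was the lowest library for 7 members, from -0.77 for EZH1 to -0.18 for EZH2, and the highest for SUV39H1 at 0.30.

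Whether the lines responded differently was tested with an interaction term fitted to the 14 libraries. No member passed (edgeR, 0 of 10 in each direction), where 1.31% of 15493 genes had a higher and 1.01% a lower response in HCT116. At an unadjusted p under 0.05 there was 1 member, SETDB1, and DESeq2 called 0. SETDB1 had the largest difference relative to its error, 0.26 (SE 0.10, adjusted p = 0.216): its log2 fold change was -0.32 in PC3 and -0.04 in HCT116. The difference for EZH1 was 0.02 (SE 0.22) and that for ASH1L was 0.10 (SE 0.17). The SETDB1 fall and the ASH1L, EZH1 and EZH2 calls were therefore not shown to differ between the lines.

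The log2 differences of the members between the lines in normoxia reached from -0.44 to 1.10, against -0.44 to 0.29 for the responses to hypoxia. All 3 PRC2 members and 3 of the 4 H3K9 members were higher in HCT116 than in PC3. ASH1L was called lower, but not with each library's trend with transcript length removed. This made 6 higher and 1 lower of 10, where 38.9% of the 15493 genes tested were higher in HCT116 and 42.4% lower. The median log2 difference of the members was 0.43, beside -0.05 over all genes tested.

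SUV39H2 differed most. It was at 21.1, 24.9, 25.3 and 24.3 CPM in normoxic PC3 and at 49.7, 49.9 and 54.6 CPM in normoxic HCT116, a log2 difference of 1.10 (SE 0.08, edgeR adjusted p = 4.72e-09). The lowest HCT116 library was thus far above the highest PC3 library. Its paralog SUV39H1 was at 31.2 to 40.9 CPM in PC3 and 37.4 to 40.9 CPM in HCT116, with a log2 difference of 0.03 (SE 0.12, adjusted p = 0.802). Per kb, SUV39H1 was the higher of the pair in every PC3 library and SUV39H2 in every HCT116 library.

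SETDB1 was the next, at 28.1 to 32.5 CPM in PC3 against 47.2 to 50.6 CPM in HCT116 (log2 difference 0.70, SE 0.07, edgeR adjusted p = 2.89e-07). EHMT1 was at 43.6 to 53.6 CPM in PC3 and 64.5 to 75.4 CPM in HCT116 (0.47, SE 0.10, adjusted p = 5.64e-04). In PRC2 the log2 differences were 0.58 for EZH2 (SE 0.07, adjusted p = 1.09e-06), 0.52 for EZH1 (SE 0.15, adjusted p = 0.00576) and 0.40 for SUZ12 (SE 0.09, adjusted p = 6.90e-04). For these 6 genes the libraries of the lines did not overlap, and the calls held under every alternative run. The lines did not overlap for SETD2 and ASH1L either, both lower in HCT116. The share of all genes without overlap, between lines or conditions, was not computed. Of all genes tested, 38.9% were called higher and 42.4% lower in HCT116. Genes of a proliferation list moved in the same direction, with 13 of 18 higher and 3 lower in HCT116 and a median log2 difference of 0.91, and their part in the member differences was not tested.

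Of the 3 H3K36 members, ASH1L alone was called. It was at 77.7 to 88.0 CPM in normoxic PC3 and 59.0 to 61.6 CPM in normoxic HCT116 (log2 difference -0.44, SE 0.12, edgeR adjusted p = 0.00374). SETD2 (-0.28, SE 0.13, adjusted p = 0.0609) and NSD1 (-0.22, SE 0.11, adjusted p = 0.0746) were not called. These 3 values depended on transcript length, since they moved to -0.04 for ASH1L, 0.02 for SETD2 and 0.20 for NSD1 (adjusted p = 0.0469) when each library's trend with length was removed. The ASH1L call was then lost and NSD1 was called in the opposite direction, so no direction is given here for the H3K36 members. Such a move was not particular to H3K36. With the same trend removed, EHMT1 was at 0.74, SETDB1 at 0.78, EZH2 at 0.67, EZH1 at 0.61, SUZ12 at 0.48 and SUV39H2 at 1.09. These members kept their direction and call.

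**Figure D5:**
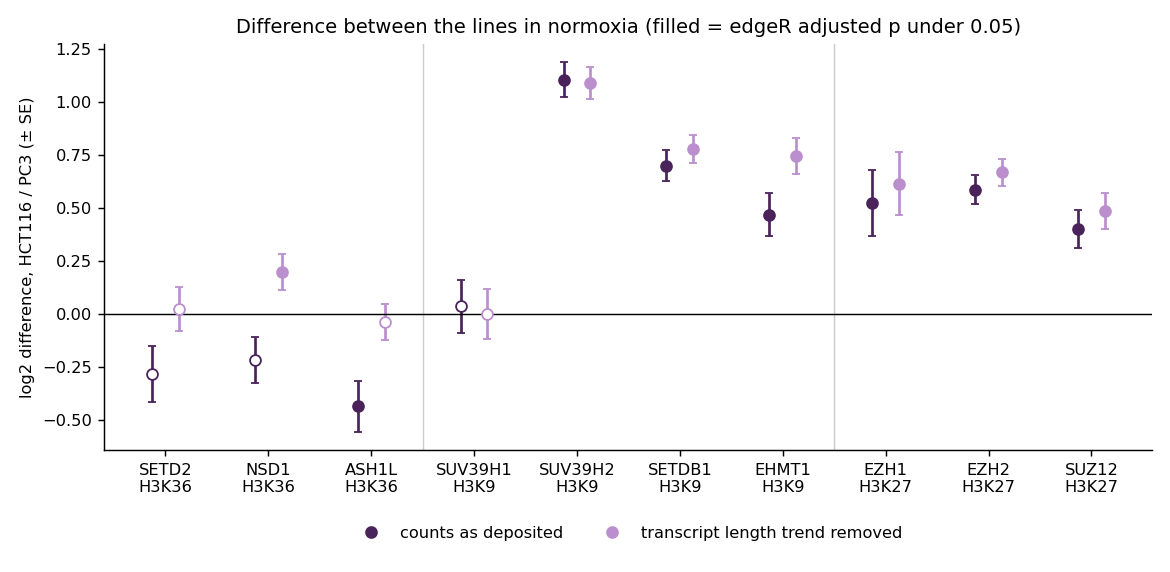
Log2 difference of each member between HCT116 (n = 3) and PC3 (n = 4) in normoxia with its standard error, from the counts as deposited and with each library's trend with transcript length removed; filled points passed an edgeR adjusted p of 0.05. SUV39H2 lay at 1.10 and 1.09, whereas ASH1L moved from -0.44 to -0.04 and NSD1 from -0.22 to 0.20.

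The partners of these enzymes were counted in lists. Beside these counts, 6.03% of all genes tested rose and 5.29% fell in PC3, and 14.6% rose and 11.3% fell in HCT116. In the paired fit of PC3, 14.9% rose and 13.6% fell. Of 10 other PRC2 subunits and partners, 0 were called in PC3 by edgeR (3 at an unadjusted p under 0.05), and the paired fit called 2 higher, C17orf96 (0.40) and PHF19 (0.26). In HCT116, 3 rose and 0 fell: C17orf96 (EPOP, which links PRC2 to elongin) by 0.59 (SE 0.07, adjusted p = 1.76e-04), JARID2 (which recruits PRC2) by 0.39 (SE 0.07, adjusted p = 0.00284) and C10orf12 by 0.36 (SE 0.08, adjusted p = 0.0104). The count of 0 falls was 1 at an unadjusted p under 0.05. EED, the core subunit that reads the mark, had log2 fold changes of -0.01 in PC3 (adjusted p = 0.964) and -0.06 in HCT116 (adjusted p = 0.543).

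Of 11 other H3K9 enzymes and partners, 1 rose and 1 fell in each line. CBX5, the heterochromatin protein HP1 alpha that binds methylated H3K9, rose by 0.25 in PC3 (SE 0.07, edgeR adjusted p = 0.0456) and by 0.73 in HCT116 (SE 0.07, adjusted p = 2.59e-05), a difference between the lines of 0.48 (adjusted p = 0.0149). SETDB2 had a log2 fold change of -0.45 in PC3 (adjusted p = 0.0288), and ATF7IP, the partner that stabilises SETDB1, had -0.36 in HCT116 (adjusted p = 0.00542). Of 5 other H3K36 enzymes, SMYD2 alone was called in each line, with 0.26 in PC3 (adjusted p = 0.0473) and 0.48 in HCT116 (adjusted p = 9.10e-04), and the paired fit of PC3 added SETMAR with -0.34 (adjusted p = 0.0173). EHMT2, the partner of EHMT1, had at most 1.38 CPM and was at 0 in 2 PC3 libraries, in a region with alternative haplotypes, so its values are uncertain.

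Of 8 readers and partners of H3K36 methylation, 0 were called in PC3 (2 at an unadjusted p under 0.05, both lower). DNMT3B, a DNA methyltransferase that binds methylated H3K36, and ZMYND11, a reader of trimethylated H3K36, fell in HCT116, with -0.32 (adjusted p = 0.00499) and -0.23 (adjusted p = 0.0231). The paired fit of PC3 also called these 2 genes lower, with -0.40 for DNMT3B and -0.30 for ZMYND11. Of 12 genes of methyl donor supply, 0 were called in PC3 (1 at an unadjusted p under 0.05), and 2 rose and 1 fell in HCT116. MTR, the methionine synthase, rose by 0.56 (SE 0.07, adjusted p = 2.35e-04) in HCT116. MAT2A, which makes S-adenosylmethionine, had -0.48 in HCT116 (SE 0.07, adjusted p = 6.91e-04) and -0.40 in the paired fit of PC3 (SE 0.09, adjusted p = 0.0174).

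The demethylases of the same residues that were called rose. Of 15 tested, 5 rose in PC3 and 7 in HCT116, where 6.03% and 14.6% of all genes tested rose. By edgeR 0 fell in either line (0 and 1 at an unadjusted p under 0.05), where 5.29% and 11.3% of all genes fell. However, the paired fit of PC3 called 6 higher and 1 lower, PHF2 (-0.20). KDM3A, which removes H3K9 methylation, was at 54.7 to 64.0 CPM in normoxic and 108 to 139.7 CPM in hypoxic PC3 (log2 fold change 1.01, SE 0.09, adjusted p = 2.55e-04). In HCT116 it was at 33.7 to 41.4 and 179.7 to 215 CPM (2.42, SE 0.09, adjusted p = 1.73e-08). KDM4B, which acts on H3K9 and H3K36, rose by 0.77 and 1.73 on the log2 scale. The next largest changes were those of KDM1A in PC3 (0.41, adjusted p = 0.0412) and KDM4C in HCT116 (0.79, adjusted p = 5.36e-05). Among the 10 methyltransferases the largest change in size, that of EZH1, was -0.44 in PC3 and -0.40 in HCT116. Of 15 lysine methyltransferases of other residues, 0 rose and 3 fell in PC3, while the paired fit called 2 higher, MLL3 (0.50) and DOT1L (0.28), and 4 lower, with SETD8 (-0.28) added. Those that fell in the unpaired fit were SETD6 (-0.45, adjusted p = 0.0411), SETD1B (-0.44, adjusted p = 0.00821) and SUV420H1 (-0.36, adjusted p = 0.00640). In HCT116, 6 rose and 4 fell, with the largest changes in MLL (KMT2A, 0.68, adjusted p = 4.26e-05), MLL2 (0.51, adjusted p = 0.00141) and SETD6 (-0.37, adjusted p = 0.0101). The response of SUV420H1 alone of the 15 differed between the lines by the interaction term (0.38, SE 0.09, adjusted p = 0.0298).

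The sequences upstream of the 4 members called in a line are shown to place them beside the motif of HIF, since hypoxia was the treatment. They are RefSeq windows of GRCh38.p14 from 250 bases before to 50 bases after a start, 5′ to 3′ on the gene's strand, with the windows of ASH1L at chr1:155562754-155563053 (minus strand), SETDB1 at chr1:150926013-150926312 (plus strand, the first of 2), EZH1 at chr17:42744991-42745290 (minus strand) and EZH2 at chr7:148884242-148884541 (minus strand, the first of 2). Capitals mark ACGTG and GCGTG (the HIF core), CCAAT (the NF-Y box), TTTGGCGC and TTTCCCGC (E2F), on either strand.
ASH1L: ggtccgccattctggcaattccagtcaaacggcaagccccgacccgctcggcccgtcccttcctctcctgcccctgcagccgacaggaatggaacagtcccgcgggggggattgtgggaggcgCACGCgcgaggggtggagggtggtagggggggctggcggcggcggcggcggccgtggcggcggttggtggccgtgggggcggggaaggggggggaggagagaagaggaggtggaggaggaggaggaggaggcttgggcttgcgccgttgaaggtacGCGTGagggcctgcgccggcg
SETDB1: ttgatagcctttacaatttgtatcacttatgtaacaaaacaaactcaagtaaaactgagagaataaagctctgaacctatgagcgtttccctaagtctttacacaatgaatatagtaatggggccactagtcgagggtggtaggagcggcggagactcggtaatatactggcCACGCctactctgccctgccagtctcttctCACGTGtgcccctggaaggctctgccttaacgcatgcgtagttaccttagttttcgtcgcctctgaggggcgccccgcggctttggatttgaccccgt
EZH1: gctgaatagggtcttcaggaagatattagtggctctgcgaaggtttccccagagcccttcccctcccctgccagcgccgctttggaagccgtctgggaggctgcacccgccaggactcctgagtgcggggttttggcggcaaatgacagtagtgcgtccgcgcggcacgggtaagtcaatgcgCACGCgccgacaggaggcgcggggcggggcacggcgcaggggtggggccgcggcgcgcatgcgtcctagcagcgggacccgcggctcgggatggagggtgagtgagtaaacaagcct
EZH2: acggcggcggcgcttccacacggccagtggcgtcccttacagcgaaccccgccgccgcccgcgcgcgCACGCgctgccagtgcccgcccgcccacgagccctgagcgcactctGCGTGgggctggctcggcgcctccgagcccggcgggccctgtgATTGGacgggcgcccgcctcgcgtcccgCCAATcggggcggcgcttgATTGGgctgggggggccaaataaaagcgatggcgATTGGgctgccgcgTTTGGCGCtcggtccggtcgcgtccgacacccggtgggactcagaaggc

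All 10 members matched a window, 17 windows in all. ACGTG or GCGTG was found in a window of every member, and in 48.4% of all 35116 windows. The form ACGTG was in windows of 2 members, SETDB1 and NSD1, and in 21.4% of all windows. In SETDB1 it lies in a palindrome that reads the same on both strands and so counts on each. CCAAT was found for 4 members and in 34.6% of all windows, and the EZH2 window holds it 4 times over both strands. The E2F letters were found for 2 members, EZH2 and SUZ12, and in 2.27% of all windows. The counts are per member, met by a match in any of up to 5 windows. The shares are per window, so these measures are unlike. Most of the member windows are rich in G and C, from 49.0% to 79.3%, and a match of letters is a description and not a binding site.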

How the data were processed

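Polyadenylated RNA from PC3 and HCT116 cells was sequenced with paired ends in 14 libraries, 4 per condition in PC3 and 3 in HCT116. Reads were aligned with HISAT2 (version 2.05) in turn to the ERCC spike-ins and to GRCh37, and reads in RefSeq genes were counted with HTSeq (version 0.5.4p3). For every library the authors deposited raw counts under 23106 gene symbols, which had not been normalised. The strand setting and RefSeq release are not given in the sources used here, so overlapping and antisense genes may share reads. Replicates of a group differed beyond sampling noise in every pair (chi-square of 12.6 to 269 per gene, on raw totals), and each was counted. Differences in composition or transcript length between libraries also raise this value, so it cannot show that the replicates are independent. The limit of 3 counts covers counting error only, whereas the SDs and the edgeR SEs include the spread between libraries.

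The members and gene lists were chosen with earlier results of these data known. Counts were tested with edgeR (version 4.0.16, R 4.3.3): filterByExpr, TMM scaling and the quasi-likelihood test, with Benjamini-Hochberg adjustment over all genes tested and a threshold of 0.05. Each line was fitted alone. The interaction and the difference between lines in normoxia used all 14 libraries and 15493 genes. Standard errors were taken as the unshrunk log2 fold change over the root of the F statistic. On simulated counts with 200 genes changed by a fold of 2, the test recovered 79.0% in PC3 (19 false calls among 14309 genes) and 90.5% in HCT116 (13 among 14120). Ratios of 2 genes within a library were compared by exact two-sided permutation tests (scipy) over libraries. Lengths came from the GENCODE annotation lifted to GRCh37 and were found for 87.0% of the symbols, and promoter windows from RefSeq on GRCh38.p14.

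Same-numbered PC3 libraries deviated together from the means of their conditions, with correlations over 14309 genes of 0.675, 0.267, 0.140 and 0.282 for numbers 1 to 4. The correlation was largest for number 1, and number 3 was barely set apart: hypoxic library 3 had 0.136 with normoxic library 2. Normoxic library 4 had 0.198 with hypoxic library 2. The labels state no pairing, so taking the numbers as pairs in PC3 rests on these correlations alone. The paired value is given where it changes a call.

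Every member is named. From each other list, tissue markers apart, the genes called in a line are named, with at most the 3 largest changes per list and line, together with genes that overlap a member. Some genes that this rule names are not reported here. Core partners (EED, EHMT2), PHF2 and genes called only in the paired fit were added after their values were seen. The alternatives tried were other scalings (median-of-ratios, upper-quartile, total-count), DESeq2 (version 1.42.0), other filters (none, or a minimum of 10 counts in each library), a fit over both lines, normoxic libraries alone, the replicate block, and each library left out in turn. Length trends, the paired fit without number 4 and the canonical transcript length were chosen after seeing the data. The ERCC counts and the chromatin data of the study are not analysed here.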

Additional observations from a re-analysis of the deposited data

Results flagged for a closer look

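In PC3, the only line with groups of 4, 28 groups of values were examined for a library far from the other 3 (members' CPM, the 2 ratios, total counts and the share of the 20 most abundant genes). Chance flags about 1 in 20 such groups, or 1.4 here, and 4 were found. The groups come from the same libraries and the ratios reuse the members' counts. They are therefore not independent, and 4 beside 1.4 cannot show an excess. SETD2 in the fourth hypoxic library was at 65.0 CPM, against 99.5 to 106 CPM in the others. SETDB1 in the same library was at 21.6 CPM, against 24.7 to 25.0 CPM. SUV39H1 in the first normoxic library was at 31.2 CPM, against 39.8 to 40.9 CPM. SUV39H2 in the first hypoxic library was at 21.9 CPM, against 25.6 to 26.3 CPM. The SETD2 response in PC3 moved from -0.09 to 0.06 (log2 fold change) without the fourth hypoxic library and was called in neither fit, while SETDB1 was called with it and without it (-0.26, edgeR adjusted p = 0.0238). None of the 10 members differed between the lines in its response at an edgeR adjusted p of 0.05. The causes of these single values were not tested.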

How the results depend on the processing

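The number of members called moved with several settings, and the causes were not tested. In PC3, 0 members were higher and 1 lower. With the replicate block, 2 were lower, with the block and length trends removed 3 were lower, and with the block and number 4 left out 1 was higher and 2 lower. Leaving out each library gave 0 to 1 higher and 0 to 1 lower. In HCT116, 1 was higher and 2 lower. The higher count was 0 with total-count scaling, with a fit over both lines, and with length trends removed, with or without the replicate block. The lower count was 1 without a filter on low counts, 1 with the replicate block (EZH2 adjusted p = 0.0536) and 0 with a fit over both lines. Leaving out each library gave 0 to 2 higher and 1 to 2 lower. The HCT116 numbers were not taken as pairs, since the correlations of same-numbered libraries were 0.0908, 0.138 and 0.0429, and the block moved the calls over all genes only from 2061 and 1597 to 2098 and 1656. Over the 14120 genes tested, each HCT116 library correlated best with its own number, but over the 11899 genes of at least 1 CPM normoxic library 1 correlated best with hypoxic library 3 (0.211 against 0.0901). In normoxia, 1 member was lower in HCT116, against 3 with total-count scaling, 2 with at least 10 counts in every library, 2 with normoxic libraries alone, 0 with length trends removed and 1 to 3 with a library left out. NSD1 reversed to 0.20 with length trends removed. The 6 higher calls and the absence of a call in the interaction did not change under any alternative run.

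Leaving out each library moved the SUV39H1 to SUV39H2 ratio in PC3 between -0.084 and 0.033, across 0. The lowest member value, 4.69 CPM, lay far above the 0.0447 CPM of 3 counts. The SE of EZH1 was 0.18 in PC3 and 0.08 in HCT116.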
